A study of Mus musculus with 6 samples.

Results

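The cardiac lineage transcription factors examined here are 10 genes, Nkx2-5, Gata4, Gata6, Hand1, Hand2, Tbx5, Tbx20, Mef2c, Isl1 and Mesp1. They were chosen by name among the 22367 protein-coding genes that GENCODE M1 places on the chromosomes of the peak list in the mouse genome build mm9. For each gene the question was whether Dppa2, a pluripotency marker with a SAP DNA-binding domain, occupied its transcription start site (TSS) in mouse embryonic stem cells (ESCs). A gene was called Dppa2-bound when a peak midpoint lay within 1000 bp of any of its annotated TSSs.

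The cells were CGR8, a feeder-free mouse ESC line grown with leukemia inhibitory factor, in which Dppa2 with an N-terminal V5 tag was expressed from the constitutive pPyCAG vector in puromycin-selected stable clones. The anti-V5 ChIP on these cells and the control ChIP on the untagged parental CGR8 line were 1 library each, so that no replicate error and no test between conditions can be given. The control entered only through the authors' peak calling, and 4 histone modification ChIPs of the series were not analysed here. The 3336 listed peaks carry names starting with TSS and 3281 of them have their midpoint within 1000 bp of a TSS, so the list covers start sites and not enhancers, at which many heart genes are controlled. The depth of the libraries is unknown, and a gene without a listed peak may have had weaker signal below the authors' threshold. A peak list holds no expression values, so the cells could not be checked against ESC markers.

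The 10 factors form the core of the regulatory network that specifies the heart. Mesp1 marks the earliest cardiac progenitors of the mesoderm, Isl1 marks the second heart field, and Nkx2-5, the GATA factors, the T-box factors, the Hand factors and Mef2c act together in progenitors and cardiomyocytes to switch on contractile genes. In ESCs such lineage regulators are generally held silent or near silent, and their promoters often lie in long CpG-rich stretches that carry both activating and repressive histone marks. The histone marks at these genes were not analysed here.

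Of the 10 cardiac factors only Nkx2-5 was Dppa2-bound, which is 10.0% (exact 95% interval 0.253 to 44.5%; all intervals cover counting error only). Among all protein-coding genes 3169 of 22367 were bound, or 14.2% (13.7 to 14.6%). Nkx2-5 had served as a positive control of the study because it was a known Dppa2 site. Its binding was thus known before the count, and the factors were chosen with earlier results of these data known. The interval of the factors therefore gives no test against the 14.2%. None of the 9 other factors had a peak midpoint within 1000 bp of any TSS, nor within 5 kb, a window that held a midpoint for 15.5% of protein-coding genes.

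The start of Nkx2-5 is shown first because it carries the only peak of the group. The mm9 sequence runs 5′ to 3′ on the gene's strand, with CpG dinucleotides in capitals. The upstream stretch covers the 200 bases before the TSS (chr17:26978511-26978710, minus strand), and the coding stretch spans the peak midpoint from the start codon onwards (chr17:26978165-26978300, minus strand).
Nkx2-5 upstream: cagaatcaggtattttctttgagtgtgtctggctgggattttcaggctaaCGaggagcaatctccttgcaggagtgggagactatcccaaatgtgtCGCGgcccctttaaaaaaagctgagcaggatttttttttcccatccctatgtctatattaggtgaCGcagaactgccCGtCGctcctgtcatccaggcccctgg
Nkx2-5 coding: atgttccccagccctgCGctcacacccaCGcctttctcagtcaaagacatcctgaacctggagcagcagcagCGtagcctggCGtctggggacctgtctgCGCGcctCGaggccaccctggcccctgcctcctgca

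The upstream stretch of Nkx2-5 holds 6 CpGs with a GC content of 49.5%, and the coding stretch of 136 bp holds 7 CpGs at 65.4%. The median over all protein-coding genes was 7 CpGs in the 200 bases upstream, and over bound genes it was 16. The number at Nkx2-5 was thus close to the median of all genes and below that of bound genes.

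Among the unbound factors Isl1 and Tbx5 mark the ends of the range and are printed for comparison, again as the 200 bases before the TSS with CpGs in capitals. Isl1 lies on the minus strand (chr13:117099897-117100096) and Tbx5 on the plus strand (chr5:120284472-120284671).
Isl1 upstream: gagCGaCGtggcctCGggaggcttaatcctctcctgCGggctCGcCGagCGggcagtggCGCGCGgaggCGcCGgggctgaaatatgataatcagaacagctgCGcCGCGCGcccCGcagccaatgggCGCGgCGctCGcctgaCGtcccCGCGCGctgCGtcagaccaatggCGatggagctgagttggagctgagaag
Tbx5 upstream: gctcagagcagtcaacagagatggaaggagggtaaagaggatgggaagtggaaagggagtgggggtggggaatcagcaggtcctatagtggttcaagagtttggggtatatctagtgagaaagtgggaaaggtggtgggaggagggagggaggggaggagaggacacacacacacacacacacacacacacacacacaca

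Isl1 holds 27 CpGs in this stretch and Tbx5 holds 0. Neither had a Dppa2 peak, and the nearest midpoint was 714 kb from the TSS of Isl1 and 646 kb from that of Tbx5. At the TSS shared by most transcripts, the other unbound factors lay between these values. There were 18 CpGs at Tbx20, 15 at Hand2, 10 at Hand1, 9 at Gata6, 3 at Mesp1 and 1 each at Gata4 and Mef2c.

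Nkx2-5 (ENSMUSG00000015579), the homeobox factor of cardiac progenitors, occupies 26975609 to 26978510 of chromosome 17 (minus strand) and has 1 annotated transcript. Its peak ran from 26977748 to 26978732, a width of 985 bp, and had a score of 109. The score, set by the authors, is the MACS p-value on a scale of −log10 multiplied by 10. Only 146 of the 3336 peaks, or 4.38%, had a lower score, and 252, or 7.55%, were narrower. The midpoint lay 270 bp downstream of the TSS.

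The peak reached from the promoter into the intron of Nkx2-5. It covered 222 bp upstream of the TSS, 210 bp of 5′ UTR, 331 bp of coding sequence and 222 bp of the intron. No other annotated gene had a TSS within 1000 bp of the midpoint, and of its 950 overlapping stretches of 36 bases, the seed length of the authors' alignment, 0% occurred more than once on the chromosomes of the list. The lowest score in the list was 100.01, so that the peak stood close to the limit of what the authors kept. The scores directly above belonged to peaks nearest to Cacna1i at 109.03, Gm10125 at 109.22 and Gnai1 at 109.32, and those directly below to peaks nearest to 4930506M07Rik and Zmym4, both at 108.96, and Lmbr1l at 108.75. With peaks limited to a score of 200 or more (p-value of 1e-20 or less), none of the 10 factors was bound, beside 8.06% of protein-coding genes.

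The peak did not sit on the CpG-richest part of Nkx2-5. Over its 985 bp it held 55 CpGs at a GC content of 61.1%, with a ratio of observed to expected CpGs of 0.600, and 31.6% of all peaks had a lower ratio. The densest window of 1000 bp within 5 kb of the TSS was centred 2300 bp downstream in the coding part of the last exon and held 101 CpGs, with a ratio of 0.888. Its centre was 2030 bp from the peak midpoint. No listed midpoint lay more than 1828 bp downstream of its nearest TSS, so the list could hardly show a peak centred on that window.

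The distances of the unbound factors from the nearest peak spanned a wide range. Mesp1 and Hand1 had a midpoint within 31.0 kb of every TSS, at 17.4 kb for Mesp1 and 30.4 kb for the closer TSS of Hand1. Hand2, Gata4, Tbx20 and Gata6 followed at 166, 222, 271 and 326 kb. Tbx5, Isl1 and Mef2c were farthest, at 646 kb, 714 kb and 1.76 Mb. The median over the 10 factors was 247 kb, beside 140 kb over all protein-coding genes, and 7 of the 10 lay farther from a peak than that median.

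**Figure D1:**
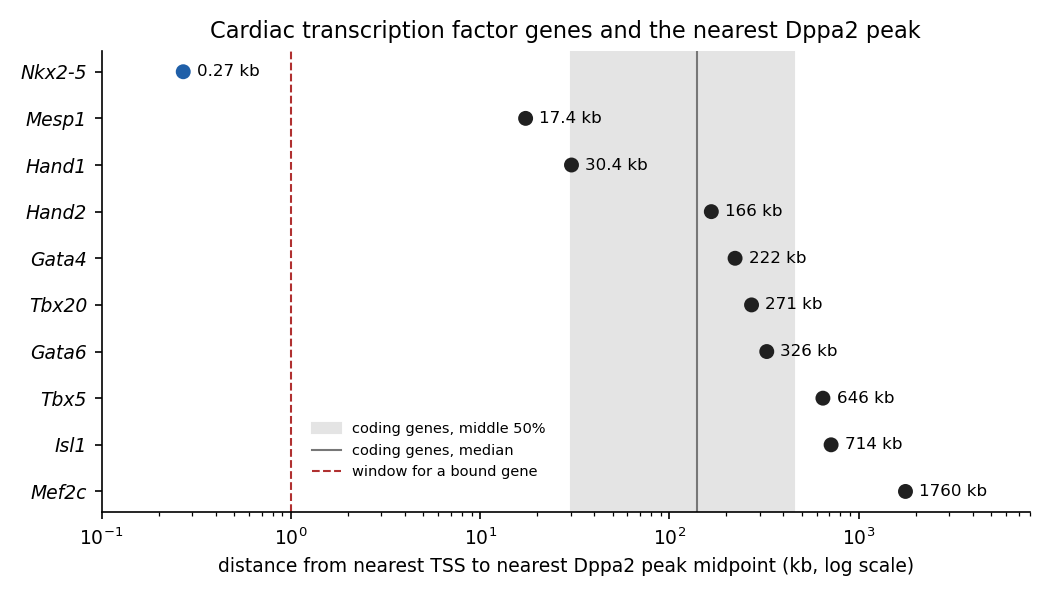
Distance in kb, on a log axis, from the nearest TSS of each of the 10 cardiac factors to the nearest Dppa2 peak midpoint; the grey band and line give the middle 50% and the median of all protein-coding genes, and the dashed line the 1 kb window. Nkx2-5 at 0.270 kb is the only gene left of the dashed line, and the next, Mesp1, stands at 17.4 kb.

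There was no borderline case among the factors. Nkx2-5, at 270 bp, lay well inside the window and Mesp1, at 17376 bp, was the nearest outside it. Counting any base of a peak in place of its midpoint left Mesp1 at 16.6 kb and Hand1 at 29.1 kb. All 17 TSSs of the 10 genes entered these distances, including the 6 of Gata4, which spanned 222 to 280 kb from the same peak, and the 2 of Mef2c.

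Mesp1 and Mesp2 are neighbouring basic helix-loop-helix genes that are both active in early mesoderm, Mesp1 in cardiac progenitors and Mesp2 in the forming somites. Mesp1 (ENSMUSG00000030544) spans 86937127 to 86938674 on the minus strand of chromosome 7. The TSSs of the pair lie 16.9 kb apart, they are transcribed in opposite directions, and no annotated gene lies wholly between them. Mesp2 was Dppa2-bound and Mesp1 was not: the peak that is nearest to Mesp1 is that of Mesp2. It spanned 86955249 to 86956851 over 1603 bp, with a score of 458 and rank 445 of 3336, and its midpoint lay 437 bp downstream of the Mesp2 TSS in the coding part of exon 1.

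The 200 bases before each start site and the most CpG-dense coding stretch of 150 bp in each gene are set side by side, because the neighbours differed in binding (chr7:86938675-86938874 and chr7:86938102-86938251 on the minus strand for Mesp1; chr7:86955413-86955612 and chr7:86955959-86956108 on the plus strand for Mesp2). CpGs are in capitals.
Mesp1 upstream: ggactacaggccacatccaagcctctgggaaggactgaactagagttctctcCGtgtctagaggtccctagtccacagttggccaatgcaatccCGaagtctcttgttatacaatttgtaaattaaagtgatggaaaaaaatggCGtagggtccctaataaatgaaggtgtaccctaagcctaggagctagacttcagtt
Mesp2 upstream: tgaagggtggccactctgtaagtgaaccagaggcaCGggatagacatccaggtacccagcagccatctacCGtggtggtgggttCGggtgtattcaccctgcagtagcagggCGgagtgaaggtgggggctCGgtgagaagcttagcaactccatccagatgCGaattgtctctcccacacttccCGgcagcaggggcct
Mesp1 coding: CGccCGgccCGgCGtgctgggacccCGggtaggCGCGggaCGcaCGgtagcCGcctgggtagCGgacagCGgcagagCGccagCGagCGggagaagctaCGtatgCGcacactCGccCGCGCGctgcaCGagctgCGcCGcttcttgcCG
Mesp2 coding: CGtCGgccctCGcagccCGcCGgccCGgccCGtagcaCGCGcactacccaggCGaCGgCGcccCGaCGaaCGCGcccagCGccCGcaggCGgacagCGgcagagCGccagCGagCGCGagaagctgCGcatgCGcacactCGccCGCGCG

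Upstream of the TSS, Mesp1 had 3 CpGs and Mesp2 had 7. Within the genes the picture was more alike, with 25 CpGs in the coding stretch of Mesp1 and 30 in that of Mesp2, and the longest exact run shared by both stretches was 28 bp. The stretch of Mesp2 lay inside the Dppa2 peak, whereas that of Mesp1 lay in no peak. In windows of 1000 bp, the densest part of Mesp1 held 92 CpGs with a ratio of 0.818, centred 700 bp downstream of the TSS, and that of Mesp2 held 73 with a ratio of 0.711, centred 200 bp downstream. By this measure the unbound gene was CpG-richer, whereas over 1000 bp around the TSS the order was reversed, with a ratio of 0.410 at Mesp1 and 0.550 at Mesp2.

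Hand1 and Hand2, the basic helix-loop-helix factors of the left and right ventricle, lie on chromosomes 11 and 8. Hand1 (ENSMUSG00000037335) spans 57642207 to 57646320 on the minus strand and Hand2 (ENSMUSG00000038193) 59799780 to 59803314 on the plus strand. In both cases the nearest peak was at a gene of the Sap30 family, which encodes subunits of the Sin3 histone deacetylase complex. The peak downstream of Hand1 was at Sap30l, 30.4 kb away, with a score of 272, rank 1318 and a width of 2463 bp. The peak downstream of Hand2 was at Sap30, 166 kb away, with a score of 178, rank 2218 and a width of 1381 bp. At a score of at least 200 the Sap30 peak was lost and the nearest one was 3570 kb from Hand2.

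Gata4 and Gata6 are zinc finger factors of mesoderm and endoderm. Gata6 (ENSMUSG00000005836, 11052508 to 11085633, plus strand), on chromosome 18, had its nearest peak at Mib1, an E3 ubiquitin ligase of Notch signalling, 326 kb upstream with a score of 146. Gata4 (ENSMUSG00000021944, 63817759 to 63890529, minus strand), on chromosome 14, had its nearest peak at Gm17232, 222 kb upstream with a score of 495, and no peak on its other side for 3.23 Mb.

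Tbx20 and Tbx5 are T-box factors of the heart chambers. Tbx20 (ENSMUSG00000031965, chromosome 9, 24527648 to 24578746, minus strand) had the peak of Dpy19l1 271 kb downstream, with a score of 335. Tbx5 (ENSMUSG00000018263, chromosome 5, 120284672 to 120335227, plus strand) had the peak at Gm15690 and Sds 646 kb downstream, with a score of 217, and that of Fbxo21 1.86 Mb upstream.

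Isl1, a LIM homeobox factor, and Mef2c, a MADS-box factor, both lie on chromosome 13. Isl1 (ENSMUSG00000042258) spans 117088478 to 117099896 on the minus strand and Mef2c (ENSMUSG00000005583) 83643033 to 83806684 on the plus strand. The nearest peak to Isl1 was that of Parp8, 714 kb upstream with a score of 315, and the nearest to Mef2c was that of Rasa1, 1.76 Mb downstream with a score of 343.

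The factors differed in how many genes surrounded them. Within 1 Mb of the TSS there were 2 protein-coding genes around Mef2c, 4 around Isl1, 6 around Hand2, 9 each around Gata6 and Tbx20, 18 around Tbx5 and 27 around Gata4, and all of these were below the median of 29 over all protein-coding genes. The middle 50% of genes had 15 to 49 neighbours, so that 5 of the 10 factors, from Mef2c to Tbx20, lay below that range and Tbx5 and Gata4 within it. Nkx2-5, Hand1 and Mesp1 had 49, 43 and 38. These 3 genes also had the most bound neighbours, 10 around Nkx2-5, 10 around Hand1 and 8 around Mesp1. In total 42 of the 205 neighbours were bound, or 20.5%, beside 14.2% of all protein-coding genes; neighbours can share a peak. Only Mef2c had no bound neighbour and no peak within 1 Mb.

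The CpG content of the promoters was not used to call a gene bound and was compared next. Over 1000 bp around the TSS shared by most transcripts, the CpG ratio was 0.774 at Isl1, 0.745 at Hand2, 0.657 at Gata6, 0.628 at Tbx20, 0.592 at Nkx2-5, 0.410 at Mesp1, 0.340 at Hand1, 0.296 at Mef2c, 0.173 at Gata4 and 0.121 at Tbx5. Their median was 0.501, beside 0.776 for bound and 0.467 for unbound protein-coding genes. None of the 10 reached the median of bound genes. Nkx2-5 stood at percentile 54.0 of all protein-coding genes, and 4 unbound factors had a higher ratio.

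Across protein-coding genes the bound share rose with the CpG ratio, from 0.715% in the lowest decile to 34.8% in the highest. In decile 6, which holds Nkx2-5 and Tbx20, 331 of 2236 genes were bound, or 14.8% (13.4 to 16.3%). Isl1 and Hand2 fell in decile 8, where 20.3% were bound, and Gata6 in decile 7, with 16.9%. Mesp1 fell in decile 5 with 12.2%, Hand1 and Mef2c in decile 4 with 7.47%, and Gata4 and Tbx5 in decile 2 with 1.88%. The mean of these shares over the 10 factors was 11.8%, beside the 10.0% counted. The interval of the latter, 0.253 to 44.5%, is too wide for this comparison to say anything about CpG content. The only bound factor, Nkx2-5, was also a known site before the count. None of the factors lay in deciles 9 and 10, where the bound share was highest.

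**Figure D2:**
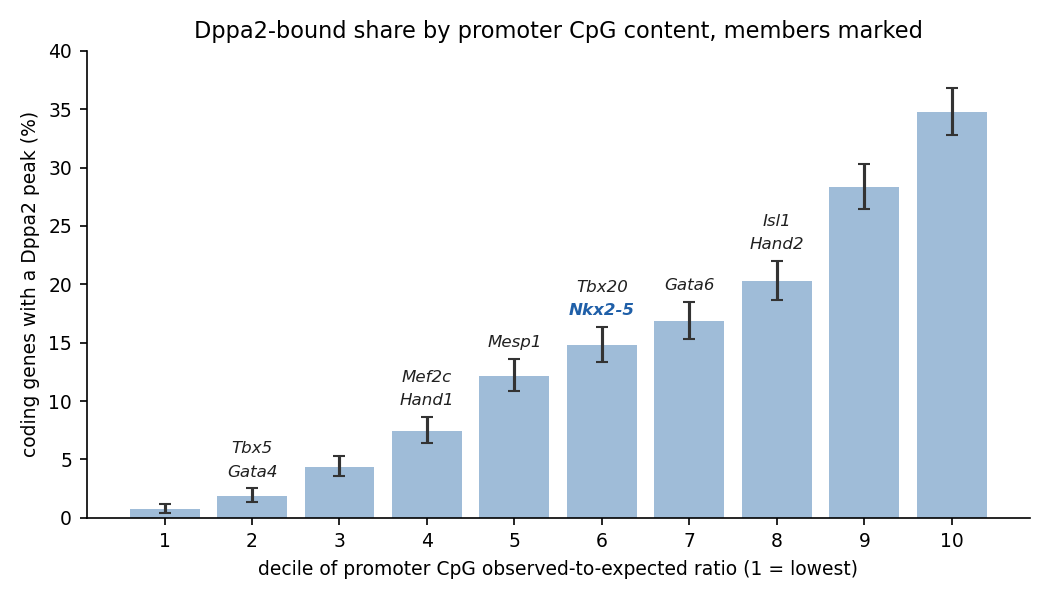
Percentage of protein-coding genes with a Dppa2 peak in each decile of the promoter CpG ratio, with exact 95% intervals, and the 10 factors written above their deciles. The bars rise from 0.715 to 34.8%, and all factors stand in deciles 2 to 8, with the bound Nkx2-5 in decile 6.

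The annotated TSS matters for some of the factors. At Gata4 the TSS with most transcripts gave 0.173, and a TSS further into the gene gave 0.667. At Mef2c the TSS with most transcripts gave 0.296 and its other TSS 0.717. Tbx5 has 1 annotated TSS, and its densest window, with 56 CpGs and a ratio of 0.636, was centred 3000 bp upstream. With the highest ratio of any TSS taken for each gene, the median of the 10 factors became 0.642. The median of bound genes, 0.776 at the TSS shared by most transcripts, was not recomputed in this way. No TSS of Gata4, Mef2c or Tbx5 was within 100 kb of a peak.

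Gata6 and Hand2, both unbound, had more CpGs in their densest window than Nkx2-5. The densest window of 1000 bp was sought within 5 kb of the TSS shared by most transcripts. It held 124 CpGs at Gata6 and 118 at Hand2, both downstream of the TSS, against 101 at Nkx2-5. It held 92 at Mesp1, 89 at Isl1, 64 at Tbx20, 56 at Tbx5, 55 at Hand1, 46 at Gata4 and 16 at Mef2c. At Isl1 it was centred 300 bp upstream of the TSS, at Tbx20 200 bp downstream, at Hand2 900 bp and at Gata6 2100 bp downstream. The list covers start sites, so it could hardly show a peak centred as far downstream as the window of Gata6. Other TSSs were outside this search, and the 1000 bp around another TSS held 63 CpGs at Gata4 and 34 at Mef2c.

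**Figure D3:**
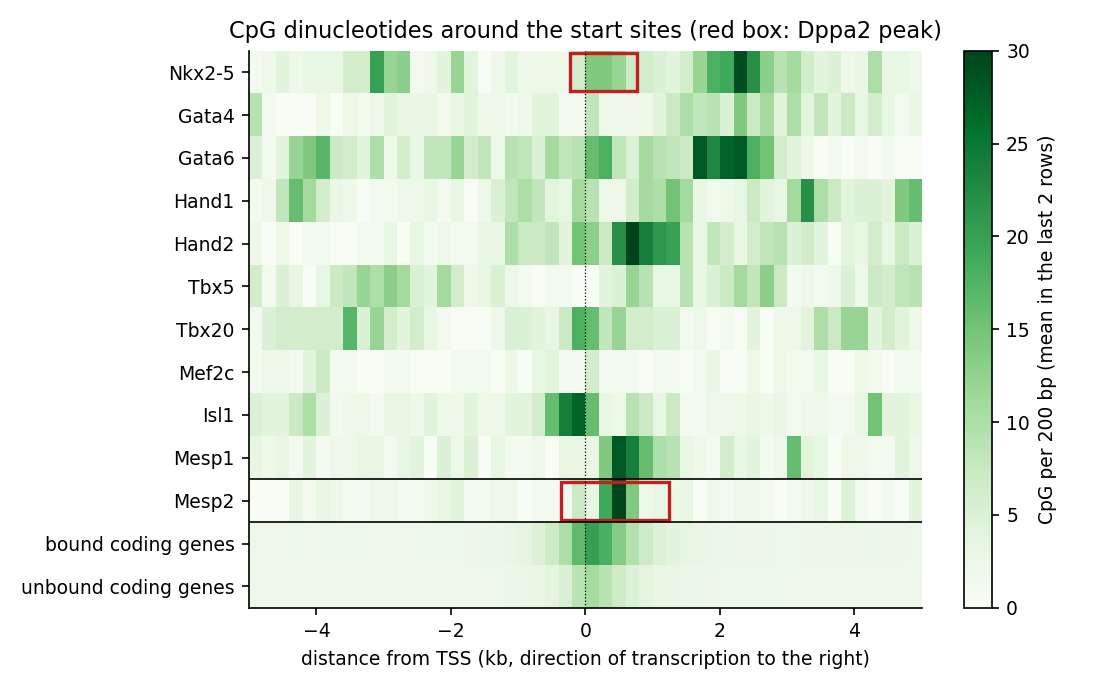
CpG dinucleotides per 200 bp from 5 kb upstream to 5 kb downstream of the TSS for the 10 factors, for Mesp2, and as the mean over bound and unbound protein-coding genes; red boxes are Dppa2 peaks. The box at Nkx2-5 covers the TSS and leaves out the darkest bins, which lie near 2300 bp downstream, while the box at Mesp2 covers its darkest bins.

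Short promoter motifs were searched on both strands in the 200 bases upstream; none of them contains another. GGGCGG was found at 2 of the 10 factors, Hand2 and Tbx20, beside 38.4% of all protein-coding genes and 61.3% of bound ones. TATAAA was found at Hand1 and Mef2c, beside 10.1% of all and 4.73% of bound genes, and CCAAT at 4 of the 10, beside 30.5% of all and 25.8% of bound genes. Nkx2-5 held none of these motifs in this window.

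The closest relatives of the factors were examined in the same way. Of 48 genes from the same families, 5 were bound, or 10.4% (3.47 to 22.7%), beside 14.2% of all protein-coding genes. Their median distance to a peak was 161 kb, beside 140 kb over all protein-coding genes. Nkx2-5 was the only bound gene of the 7 in the NK2 homeobox family, and the closest of the others, Nkx2-6, was 12.4 kb from a peak. None of the 6 GATA genes, the 4 MEF2 genes or the 12 LIM homeobox genes was bound, beside 14.2% of all protein-coding genes.

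The bound relatives were T-box and basic helix-loop-helix genes, in counts too small to set either family apart from the 14.2% of all protein-coding genes. Of 17 T-box genes Tbx4, a regulator of hindlimb and lung, and Tbx21, the T-bet factor of T cells, were bound, with scores of 156 and 181. Of 12 genes of the Twist, Hand, Mesp and Tal group 3 were bound. Besides Mesp2 these were Twist2, with a score of 694, a width of 3094 bp and rank 143, and the blood factor Lyl1, with a score of 171. Scx counted as unbound with a peak midpoint 3.50 kb from the TSS, although the peak itself covered the TSS. This peak of 9203 bp is the widest of the list, and the gene nearest to its midpoint was Heatr7a. Counting any base of the peak, or a 5 kb window, added Scx and made 6 relatives bound. With peaks limited to a score of 200 or more, 2 of the 5 relatives were left, Mesp2 and Twist2.

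Other transcription factors and cofactors of heart development were also examined. Of 40 such genes 8 were bound, or 20.0% (9.05 to 35.6%), beside 14.2% of all protein-coding genes. The list was chosen with earlier results of these data known, so the interval gives no test against that share. Myocd, the myocardin coactivator of smooth and cardiac muscle, had the lowest score of them, 121, and Mesp2, which is also counted among the relatives, the highest, 458. Tead1, a factor of the Hippo pathway, had a score of 339 with the midpoint 11 bp from the TSS. The Notch effector Hey1 had a score of 233 and the chromatin remodelling subunit Smarcd3 a score of 145.

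The remaining bound genes of this list were Zfpm2, a cofactor of GATA4, with a score of 151, Irx5 with 204 and Foxc2 with 129. Zfpm1, the relative of Zfpm2, counted as unbound with a peak midpoint 1.53 kb from the TSS, although the peak itself covered the TSS. Counting any base of the peak, or a 2 kb window, made it the gene number 9 bound of the 40. Above the same limit the 8 became 4, namely Hey1, Irx5, Mesp2 and Tead1. The CpG ratio of the 40 promoters had a median of 0.755, higher than that of the 10 factors.

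Signalling genes of heart induction and growth, mostly ligands and receptors, were examined as well. Of 30 such genes 7 were bound, or 23.3% (9.93 to 42.3%), beside 14.2% of all protein-coding genes. Here too the interval gives no test against that share. The receptors among them were Bmpr1a and Acvr1 for bone morphogenetic proteins, Fgfr1 for fibroblast growth factors, Notch1, and the hedgehog signal transducer Smo. Their scores were 229, 132, 206, 166 and 319. The ligand Nrg1, which acts on the developing myocardium, had a score of 672 and rank 158, and Aldh1a2, the retinoic acid-producing enzyme, a score of 145. At a score of 200 or more Bmpr1a, Fgfr1, Nrg1 and Smo were left, 4 of the 7. The BMP and Wnt ligand genes of the list, among them Bmp2, Bmp4, Bmp10, Wnt3a and Wnt11, had no peak within 1 kb. Nor had the receptor genes Kdr, Cxcr4, Pdgfra, Erbb2 and Erbb4, beside the 14.2% of all protein-coding genes that were bound.

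**Figure D4:**
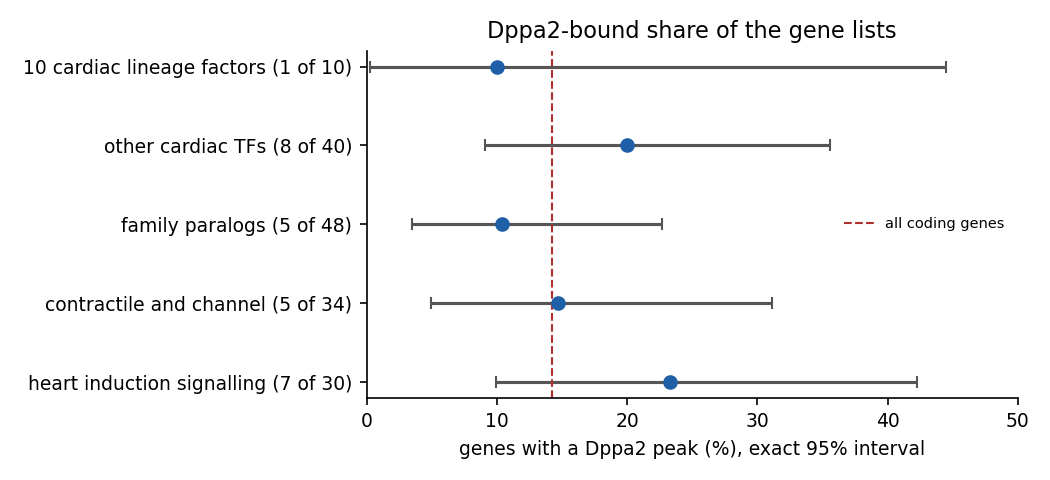
Percentage of genes with a Dppa2 peak in each list, with exact 95% intervals, and the share of all protein-coding genes as a dashed line. The points lie between 10.0% and 23.3%, and the dashed line at 14.2%. The lists were chosen with earlier results of these data known, so the intervals give no test against the line.

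Among the 25 bound genes of all lists, each counted once, the peak of Nkx2-5 had the lowest score and the smallest width. The median score of all 3336 peaks was 228 and their median width 1433 bp, and 13 of the 25 genes kept their peak at a score of at least 200, which 1977 of the 3336 peaks reached. The scores come from 1 library, with no estimate of how they would vary in another.

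**Figure D5:**
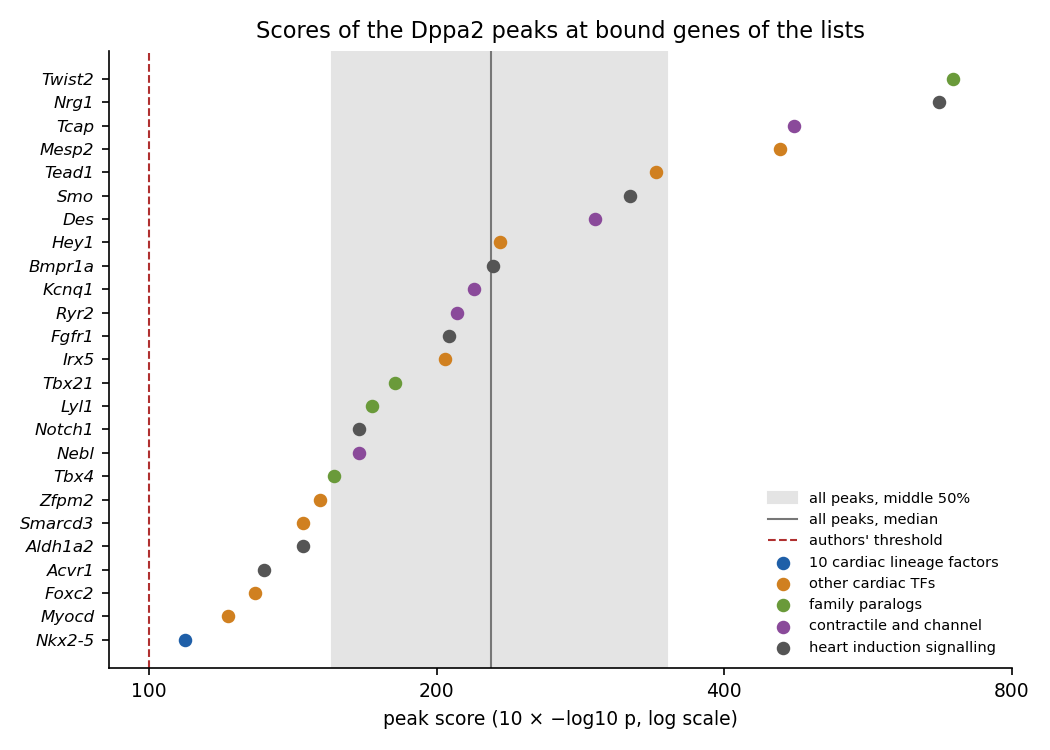
Score of the Dppa2 peak, on a log axis, at each of the 25 bound genes, coloured by list; the grey band and line give the middle 50% and the median of all peaks, and the dashed line the authors' threshold. Nkx2-5 at 109 is lowest, next to the threshold, and Twist2 at 694 and Nrg1 at 672 are highest.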

How the data were processed

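Anti-V5 ChIP-seq of V5-Dppa2 ESCs was analysed from the deposited peak list. The authors gave each peak a score, the MACS p-value against the control ChIP as −log10 multiplied by 10. The authors removed low-complexity reads, aligned with Bowtie 0.12.7 to mm9 (seed of 36 bases, at most 2 mismatches, best alignment kept), removed duplicates (Picard 1.81 is named in the submitters' processing notes), and called peaks with MACS 1.4.2 (shift size 75 bp). Peaks needed 100 reads or more and a p-value of 1e-10 or less. The list gives no summits, so midpoints were used.

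Each midpoint was compared with every annotated TSS of GENCODE M1, and sequences were read from mm9. A symbol with several gene entries counted as bound when any entry was. No test was made. Shares have exact Clopper-Pearson intervals at 95%, for counting error only. Depth is unknown. In simulated data 400 of 400 placed peaks gave the right distance. The 10 members and the 4 other lists were chosen with earlier results of these data known. The genes named are the members, the bound genes of the lists, those at the nearest peaks and those at the peaks next to Nkx2-5 in score. Scx, Zfpm1, Nkx2-6, Heatr7a, Pnmt and the flanking peaks farther away were chosen after their values were seen. So were the unbound ligands and receptors and the unbound myosin and troponin genes. Alternatives were other windows, any base of the peak, a score of at least 200, coding transcripts only, merged peaks, and other windows and TSSs for CpG content. Python 3.11.15, numpy 2.4.6, pandas 2.3.3, scipy 1.17.1, numba 0.67.0 and matplotlib 3.10.9 were used.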

Additional observations from a re-analysis of the deposited data

How the results depend on the processing

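Limiting the peaks to a score of 200 or more took the count of bound genes from 1 to 0 for the 10 cardiac factors, from 8 to 4 for the other cardiac transcription factors, from 5 to 2 for the family relatives, from 7 to 4 for the signalling genes, from 5 to 4 for the contractile and channel genes, where Nebl was lost, and from 14.2 to 8.06% for all protein-coding genes, because fewer peaks enter. The share of all protein-coding genes was 12.6% with a window of 500 bp and 15.5% with 5 kb, by construction. Nkx2-5 was the only bound member with windows of 500 bp, 2 kb and 5 kb, with any base of the peak, with coding transcripts only and with merged peaks. The other cardiac transcription factors became 6 at 500 bp, without Foxc2 and Irx5, and 9 at 2 kb, 5 kb or any base, with Zfpm1. The relatives became 6 at 5 kb or any base, with Scx. The contractile and channel genes became 4 at 500 bp or with merged peaks, without Tcap, and 6 at 5 kb, with Myl4. The signalling genes stayed at 7. The median CpG ratio of the 10 promoters, 0.501, was 0.523 over 500 bp, 0.507 over 2000 bp and 0.642 with the TSS of the highest ratio, the last chosen after seeing the data. The share bound in the CpG decile of Nkx2-5, 14.8%, was 12.3% with deciles over 2000 bp; the cause was not tested. No paired analysis was possible because only the V5-Dppa2 library, without replicates, entered the counts, and for the same reason no replicate could be left out. The unknown depth limits what the absence of a peak can show.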

Other observations

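Genes of the working cardiomyocyte, which the 10 factors switch on later in development, were examined in the same way. Of 34 contractile, calcium handling and ion channel genes 5 were Dppa2-bound, or 14.7% (95% exact interval 4.95 to 31.1%), beside 14.2% of all protein-coding genes. Des, the muscle intermediate filament, had a score of 293, and Tcap, a protein of the sarcomere Z-disc, a score of 473 with rank 416. Ryr2, the calcium release channel, had a score of 210, the potassium channel gene Kcnq1 a score of 219 and Nebl, which encodes the thin filament protein nebulette, a score of 166.

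The 5 bound genes of this list had a median CpG ratio of 0.702 and the 29 unbound ones 0.285, and Tcap was the exception with 0.261. Its midpoint lay 684 bp downstream of the TSS in coding sequence, and the peak began 25 bp upstream of the TSS, so that it covered the body of this short gene more than its promoter. The Tcap peak ended at 98246519, and a wider peak nearest to Pnmt, with a score of 639, began at 98246935. With peaks merged over gaps up to 1000 bp, or with a 500 bp window, Tcap was not bound. The cardiac myosin and troponin genes, such as Myh6, Myh7, Tnnt2 and Tnni3, had no peak within 1 kb. Myh6 lay in CpG decile 1, Myh7 in decile 2, and Tnnt2 and Tnni3 in decile 4. The bound shares of all protein-coding genes in these deciles were 0.715, 1.88 and 7.47%. Myl4 had a midpoint 3.96 kb away and was bound only with the 5 kb window.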
